A study of Mus musculus with 6 samples.

Results

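The phase II conjugation enzymes described here are the UDP-glucuronosyltransferases (UGT), the cytosolic sulfotransferases (SULT) and the soluble glutathione S-transferases (GST). The rule that picks them uses gene symbols and no measured value. The symbols of the Ugt1, Ugt2, Ugt3 and Sult1 to Sult5 series and of the alpha, mu, pi, theta, omega, kappa and zeta glutathione transferases matched 69 of the 52459 rows in the count table. Leaving out 7 pseudogene rows, those with "-ps" in the symbol, left 62 members: 21 UGT, 19 SULT and 22 GST. The RNA came from 6 bulk samples of mouse liver labelled as tumour, all of the genotype MYC-LAP-tTA. LAP is a liver promoter that drives the tetracycline transactivator tTA, which in turn drives a MYC transgene, so both groups carry the same transgenes and a change in the tumour cells is read in bulk tissue. MYC was active in 3 samples (MYC-On), and the other 3 were taken 4 days after its inactivation (MYC-Off Day 4). Age, sex, strain and the agent that switched MYC off are not given in the labels. Nor is it given that replicates are different animals, and a p-value here then reflects only how far these libraries scatter, which may be technical.

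Phase II enzymes attach a polar group to drugs, toxins, hormones, bilirubin and bile acids so that the product can be carried out of the cell and excreted in bile or urine. UGTs sit in the endoplasmic reticulum and take glucuronic acid from UDP-glucuronate, SULTs are cytosolic and take a sulfate group from PAPS (3′-phosphoadenosine-5′-phosphosulfate), and GSTs join glutathione to reactive, often oxidised or chlorinated, compounds. In the liver most of this work is done by hepatocytes, in which the enzymes are abundant and under the control of nuclear receptors that sense foreign compounds and of liver transcription factors.

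After MYC inactivation most of the measurable conjugation enzymes were higher, in all 3 families. Of the 62 members, 40 had enough reads to be tested (14 UGT, 7 SULT and 19 GST), and of these 35 rose (12, 7 and 16), 2 fell, both of them GSTs (Gstm5 and Gsto1), and 3 (Ugt1a10, Ugt1a6a and Gstp1) did not pass the threshold (adjusted p of 0.05, quasi-likelihood test of edgeR). Among all 14130 genes tested the same rule called 52.7%, with 29.9% higher and 22.8% lower. The members' median log2 fold change, MYC-Off Day 4 minus MYC-On, was 4.27 over all families, with 5.79 for UGT, 5.30 for SULT and 4.05 for GST, beside 0.18 over all genes tested. In 32 of the 40 the lowest MYC-Off Day 4 library lay above the highest MYC-On library and in 2 the groups were apart the other way, against 33.2% and 29.8% of all genes tested. Of the tested members, 10 (7 UGT, 2 SULT and 1 GST) did not reach the filter's read minimum in all 3 MYC-On libraries. They are Ugt1a1, Ugt1a9, Ugt1a10, Ugt2a3, Ugt2b1, Ugt3a1, Ugt3a2, Sult1c2, Sult2a1 and Gsta1. Ugt1a10 and Ugt3a1 needed libraries of both groups to enter the test, and the other members named came in through MYC-Off Day 4. None of the 10 supports the counts of calls and of groups apart or the medians. The 32 members without overlap were not counted again without them. Without these 10, 26 of 30 members were called higher (6 of 7 UGT, 5 of 5 SULT and 15 of 18 GST) and 2 lower, and the median log2 fold change was 3.85 in all, 2.21 for UGT, 3.98 for SULT and 3.88 for GST.

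**Figure D1:**
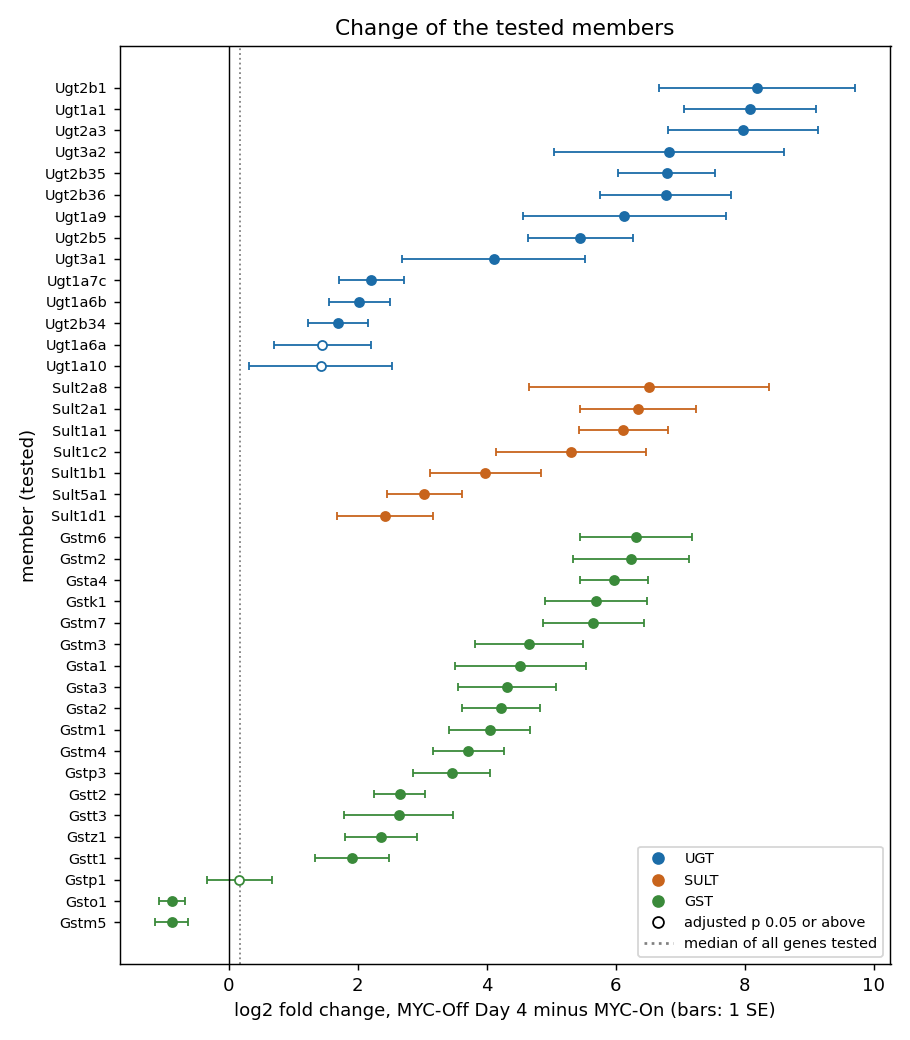
Log2 fold change (horizontal axis, MYC-Off Day 4 minus MYC-On) of the 40 tested members (vertical axis), coloured by family, with bars of 1 SE and open points where the adjusted p was 0.05 or above. Gsto1 and Gstm5 lie below 0, Gstp1 lies at the median of all genes tested (dotted line, 0.18), and the other members lie to the right of it, up to 8.20 for Ugt2b1.

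Each library held 16292718 to 19265623 reads. Myc, measured first as the check of the labels, stood at 779, 1018 and 854 CPM in MYC-On and at 74.8, 10.2 and 18.7 CPM in MYC-Off Day 4, in replicate order, where CPM is the read count scaled to a fixed library total, here after scaling by the trimmed mean of M-values (TMM). Its row fell by 4.67 on the log2 scale (adjusted p = 0.00350), and the groups did not overlap. This row cannot separate transgene reads from those of the mouse gene. Markers of hepatocytes rose as well: 12 of 13 tested were called higher, beside 29.9% of all genes tested. Their median log2 fold change was 3.64, and their summed level went from 4328 to 8938 CPM to 112716 to 285770.0 CPM. In such bulk tissue more hepatocyte RNA per cell and more cells of that type cannot be told apart, and the part of this shift in the results on the members was not tested. With library size only in place of TMM, the median over all genes tested moved from 0.18 to -0.56 on the log2 scale. Called higher were then 8 of 14 UGT, 6 of 7 SULT and 14 of 19 GST members, beside 2527 of 14130 genes. These counts include the members that did not reach the read minimum in all MYC-On libraries.

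The share of all reads taken by the families went up in every MYC-Off Day 4 library. UGT reads made up 0.0145% to 0.0358% of a MYC-On library and 0.0898% to 0.313% of a MYC-Off Day 4 library. For SULT the ranges were 0.00160% to 0.00845% and 0.0348% to 0.0811%, and for GST 0.0841% to 0.119% and 0.205% to 0.584%. The ranges did not overlap in any family. In both groups the GST family held the most reads and the SULT family the fewest.

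**Figure D2:**
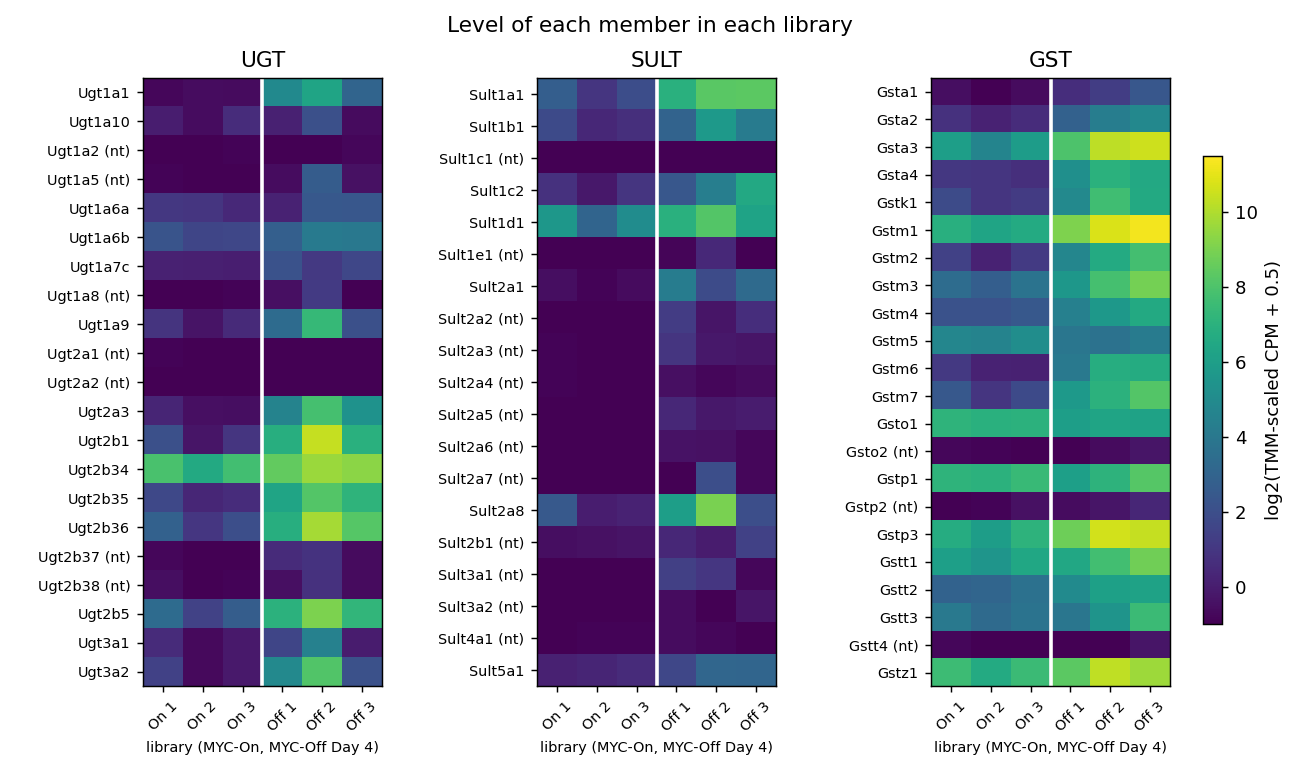
Level of all 62 members in each library as colour on a log2 scale of TMM-scaled CPM with 0.5 added, with MYC-On to the left and MYC-Off Day 4 to the right of the white line in each panel; "nt" marks the 22 members that were not tested. Rows such as Ugt2b34, Gstp1, Gsto1 and Gstz1 are bright on both sides, while most tested UGT and SULT rows are dark in MYC-On and differ in brightness between the 3 MYC-Off Day 4 libraries.

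Several members share sequence, which limits what their reads can say. The 9 Ugt1a members are alternative first exons spliced to common exons, so that only part of each lies in exon not shared with the others (385 bases for Ugt1a1), and the handling of reads from the common exons is not given in the sources used here. Over 50% of 50-base stretches were shared with another gene in 14 members, among them all 9 Ugt1a members, Ugt2a1, Ugt2a2, Gsta1, Gstp2 and Sult2a2, and their single values are uncertain. Under that limit, and leaving out the members that did not reach the read minimum in all MYC-On libraries, 24 of 27 were called higher (4 of 4 UGT, 5 of 5 SULT and 15 of 18 GST).

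The stretches just upstream of the start were read from RefSeq (GRCm38.p6) for the 2 members that fell, Gstm5 and Gsto1, and for Gsta3, a member that rose. Gsta3 and Gstm5 are shown because both hold the core of the antioxidant response element and moved in opposite directions. Capitals mark this core, TGACNNNGC, on either strand, and each stretch is 150 bases, 5′ to 3′. It ends just before the RefSeq or the GENCODE start, whichever lies further upstream, so that its last base is 1 base before the RefSeq start for Gsta3, 34 for Gstm5 and 4 for Gsto1.
Gsta3, chr1:21240435-21240584, plus strand: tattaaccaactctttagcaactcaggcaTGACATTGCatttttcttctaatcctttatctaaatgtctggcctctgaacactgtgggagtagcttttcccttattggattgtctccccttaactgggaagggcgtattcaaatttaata
Gstm5, chr3:107895671-107895820, plus strand: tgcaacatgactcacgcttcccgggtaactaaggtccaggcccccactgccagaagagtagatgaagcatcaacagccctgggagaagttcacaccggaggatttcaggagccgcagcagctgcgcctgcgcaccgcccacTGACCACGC
Gsto1, chr19:47854820-47854969, plus strand: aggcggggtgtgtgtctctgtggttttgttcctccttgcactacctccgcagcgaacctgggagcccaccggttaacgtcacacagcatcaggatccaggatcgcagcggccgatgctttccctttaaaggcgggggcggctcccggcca

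Windows of 300 bases, 250 before to 50 after the start, were at hand for 54 of the 62 members (65 windows). TGACNNNGC was present in Gsta3, Gstm5 and Gstm7 (4.62% of the members' windows against 12.4% of all), of which Gsta3 and Gstm7 rose and Gstm5 fell. TNGCGTG, the site of the aryl hydrocarbon receptor, was found in Gsta2, Sult1d1 and Ugt1a5 (4.62% against 5.07%). CACGTG, the E-box to which MYC binds with MAX, was in 0 of 65 windows and in 7.15% of all. Both strands were searched, matches of different motifs may overlap each other, and a match of letters describes the window only.

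Among the glucuronosyltransferases, the enzymes with the largest increases were Ugt2b1, Ugt1a1, Ugt2a3 and Ugt3a2, all of them nearly silent while MYC was on. They belong to the 7 UGT members that did not reach the read minimum in all MYC-On libraries. Ugt2b1, Ugt1a1, Ugt2a3 and Ugt3a2 came into the test through MYC-Off Day 4, the group in which they are high. Their fold changes and adjusted p values therefore describe these genes and do not support the rise of the family. Ugt1a1 (chromosome 1, 88211959 to 88218997, plus strand, mm10) is the enzyme that conjugates bilirubin. It stood at 0.0891, 0.164 and 0.148 CPM in the MYC-On libraries and at 29.7, 77.0 and 7.76 CPM in the MYC-Off Day 4 libraries. Every MYC-Off Day 4 library was far above MYC-On, and replicate 2 was the highest. The mean rose from 0.134 ± 0.0393 to 38.2 ± 35.4 CPM (mean ± SD of 3 libraries), and its log2 fold change was 8.08 with SE 1.03 (adjusted p = 0.00136). Ugt2b1 (chromosome 5, 86916638 to 86926530, minus strand), of the UGT2B branch that takes steroids, bile acids and many drugs, was at 3.65, 0.327 and 1.43 CPM in MYC-On and at 116, 1352 and 121 CPM in MYC-Off Day 4. Its rise of 8.20 with SE 1.52 (adjusted p = 0.00458) on the log2 scale came with replicate 2 far above both other MYC-Off Day 4 libraries, which were still above MYC-On. Ugt2a3 (chromosome 5, 87324972 to 87337195, minus strand) had the same order of MYC-Off Day 4 libraries, with 0.713, 0.205 and 0.197 CPM against 23.8, 221 and 41.2 CPM and a log2 fold change of 7.97 with SE 1.16 (adjusted p = 0.00198). Leaving out MYC-Off Day 4 replicate 2 lowered these 3 values to 5.96 (Ugt2b1), 7.04 (Ugt1a1) and 6.33 (Ugt2a3), and leaving out MYC-On replicate 1 raised Ugt2b1 to 9.19 and Ugt2a3 to 8.79, with all calls kept.

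The Ugt3a pair, whose products are known to use other sugars than glucuronic acid, was less even between libraries. Ugt3a2 (chromosome 15, 9335550 to 9370955, plus strand) was at 2.18, 0.123 and 0.395 CPM in MYC-On and 29.2, 275 and 3.76 CPM in MYC-Off Day 4. The groups did not overlap, but MYC-Off Day 4 replicate 3 lay close to MYC-On replicate 1. Its log2 fold change was 6.83 with SE 1.78 (adjusted p = 0.0160), which became 4.17 without MYC-Off Day 4 replicate 2 and 8.58 without MYC-On replicate 1, and the call was lost without MYC-On replicate 2 (adjusted p = 0.0666) or replicate 3 (adjusted p = 0.0677), as it was in limma-voom (adjusted p = 0.0989), with no filter (0.109) and with a replicate block (0.0524). Ugt3a1 followed with 0.935, 0.123 and 0.395 CPM against 2.58, 22.3 and 0.461 CPM. Here MYC-Off Day 4 replicate 3 fell within the MYC-On range, and the call (log2 fold change 4.11, adjusted p = 0.0433) was lost without any 1 of the MYC-On libraries and without MYC-Off Day 4 replicate 2, where the value was 1.63. Its call was lost too with library size only, no filter, limma-voom and a replicate block (adjusted p from 0.0636 to 0.230).

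Ugt2b34 was the exception in level. It was well expressed with MYC on, at 242, 96.6 and 209 CPM, and stood at 361, 778 and 639 CPM after inactivation. The groups did not overlap, MYC-On replicate 2 was the lowest library and MYC-Off Day 4 replicate 2 the highest. Its mean went from 183 ± 76.2 to 593 ± 213 CPM, a log2 fold change of 1.70 with SE 0.46 (adjusted p = 0.0187), the smallest among the UGT members called. The call was lost with library size only (0.91, adjusted p = 0.0699) and without MYC-On replicate 2 (1.34, adjusted p = 0.0685) or replicate 3 (1.76, adjusted p = 0.0650), and with a replicate block (adjusted p = 0.0665). Its neighbours on chromosome 5 moved further. Ugt2b36 went from 6.90, 1.47 and 3.50 CPM to 115, 887 and 299 CPM, a log2 fold change of 6.77 with SE 1.02 (adjusted p = 0.00222) that was 5.59 without MYC-Off Day 4 replicate 2 and 7.40 without MYC-On replicate 1. Ugt2b35 and Ugt2b5 rose by 6.79 and 5.45 on the log2 scale, from means of 1.49 ± 1.06 and 6.08 ± 3.82 CPM to 166 ± 105 and 266 ± 216 CPM, and moved to 6.07 and 4.45 without MYC-Off Day 4 replicate 2 (Ugt2b35 to 7.50 without MYC-On replicate 1). Of the untested members of these branches, Ugt2b37 had 2 reads over MYC-On and 36 over MYC-Off Day 4, a ratio of 27.3 (exact 95% interval 7.03 to 234), Ugt2b38 reached 1.22 CPM in MYC-Off Day 4 replicate 2, Ugt2a1 had 1 read in all and Ugt2a2 had 0.

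Of the 6 tested first exons of the Ugt1a locus on chromosome 1, 4 were called higher. Ugt1a9 rose with Ugt1a1, from 1.34, 0.286 and 0.888 CPM to 9.73, 163 and 3.61 CPM. Almost all of that came from MYC-Off Day 4 replicate 2: the log2 fold change of 6.13 (adjusted p = 0.0151) was 2.95 without it, and the call was lost without MYC-On replicate 2 or 3 (adjusted p = 0.0690 and 0.0620) and with no filter, limma-voom or a replicate block (adjusted p from 0.0808 to 0.103). Ugt1a6b, of the type that conjugates flat phenols, had 4.19, 2.58 and 2.71 CPM in MYC-On and 6.32, 16.8 and 15.5 CPM in MYC-Off Day 4, without overlap. Its log2 fold change of 2.02 (adjusted p = 0.0103) and that of Ugt1a7c, 2.21 (adjusted p = 0.00966), were close to the threshold: each lost its call without MYC-On replicate 2 or 3 (adjusted p from 0.0520 to 0.0565), Ugt1a7c also without MYC-On replicate 1 (adjusted p = 0.0552), and both with library size only. Ugt1a6a did not pass, with 1.51, 1.43 and 0.838 CPM against 0.659, 4.97 and 4.84 CPM (adjusted p = 0.142). Its groups overlapped through MYC-Off Day 4 replicate 1, without which it passed (adjusted p = 0.0127). Ugt1a10 did not pass either, at 0.490, 0.164 and 0.986 CPM against 0.604, 3.67 and 0.154 CPM (adjusted p = 0.309), and its log2 fold change of 1.43 was -0.51 without MYC-Off Day 4 replicate 2. Ugt1a5 was not tested and had 1 read over the MYC-On group and 80 over the MYC-Off Day 4 group, a ratio of 121 after allowing for depth (exact 95% interval 21.2 to 4851, counting error only). Of the 80 reads 74 came from replicate 2, and without that library the ratio was 12.9 (1.57 to 594). Ugt1a8 had 1 read against 26, a ratio of 39.4 (6.48 to 1617), and 8.61 (0.852 to 424) without replicate 2, which held 22 of the 26 reads. Ugt1a2 had at most 0.0768 CPM in any library. A gene on the other strand, Gm20528, overlaps this locus, and without a stated strand setting its reads cannot be told apart.

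The 7 tested sulfotransferases were each called higher, and 2 of them, Sult2a1 and Sult1c2, came into the test through MYC-Off Day 4. Sult1a1 (chromosome 7, 126672865 to 126676432, minus strand), the main enzyme for phenols, was at 6.10, 1.43 and 3.35 CPM in MYC-On and 122, 310.1 and 325 CPM in MYC-Off Day 4. All MYC-Off Day 4 libraries lay far above the highest of MYC-On. The mean rose from 3.63 ± 2.35 to 253 ± 113 CPM, a log2 fold change of 6.12 with SE 0.70 (adjusted p = 0.00102), and this call held without each library. Sult2a1 (chromosome 7, 13796246 to 13837409, minus strand), of the branch that sulfates hydroxysteroids and bile acids, went from 0.178, 0.0409 and 0.148 CPM to 18.4, 3.06 and 9.52 CPM. It was highest in replicate 1 and lowest in replicate 2, and its log2 fold change of 6.35 with SE 0.90 (adjusted p = 0.00188) was 5.48 without MYC-Off Day 4 replicate 1. Sult1c2 (chromosome 17, 53829637 to 53846339, minus strand) was highest in replicate 3 instead, with 1.20, 0.368 and 1.43 CPM in MYC-On and 4.78, 19.9 and 93.7 CPM in MYC-Off Day 4. Its log2 fold change of 5.30 with SE 1.16 (adjusted p = 0.00843) was 3.48 without that library and missed 0.05 in limma-voom (adjusted p = 0.0528) and with no filter (adjusted p = 0.0514).

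Sult1b1 (chromosome 5, 87513339 to 87538195, minus strand), which acts on thyroid hormones, rose from 2.98, 0.819 and 1.13 CPM to 7.31, 53.3 and 17.7 CPM. The groups did not overlap, and the log2 fold change of 3.98 with SE 0.86 (adjusted p = 0.00804) ran from 2.81 without MYC-Off Day 4 replicate 2 to 4.68 without MYC-On replicate 1. Sult1d1 (chromosome 5, 87554645 to 87569027, minus strand), a sulfotransferase of catecholamines in the mouse, was the one with a clear level while MYC was on: 49.0, 7.65 and 33.0 CPM, against 123, 284 and 75.1 CPM. MYC-On replicate 2 was low, as it was for Ugt2b34. Its log2 fold change of 2.43 with SE 0.74 (adjusted p = 0.0284) was the smallest of the family. The call was lost without MYC-On replicate 2 (adjusted p = 0.0612) or 3 (0.0869) and without MYC-Off Day 4 replicate 1 (0.0511) or 2 (0.0947), where the value was 1.67. It was lost as well with library size only (adjusted p = 0.0647), no filter (0.0925) and a replicate block (0.0922). Sult5a1 rose by 3.03 on the log2 scale from 0.766 ± 0.159 to 6.32 ± 3.20 CPM.

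Sult2a8, an enzyme of bile acid sulfation in the mouse, had the largest ratio between MYC-Off Day 4 libraries among the tested members. It was at 5.12, 0.491 and 0.641 CPM in MYC-On and at 64.6, 507 and 3.46 CPM in MYC-Off Day 4. Replicate 2 was 147 times replicate 3, which lay within the MYC-On range. The log2 fold change of 6.52 with SE 1.87 (adjusted p = 0.0224) became 4.02 without MYC-Off Day 4 replicate 2 (adjusted p = 0.0574) and 8.34 without MYC-On replicate 1, and the call was also lost without MYC-On replicate 2 or 3 (adjusted p = 0.0874 and 0.0829) and in limma-voom (adjusted p = 0.150), with no filter (0.134) and with a replicate block (0.0667). The other Sult2a genes and the Sult3a pair were below the filter yet had reads almost only after MYC inactivation. With 0 reads over the MYC-On group, and a floor of 3 reads over that group, Sult3a1 (58 reads over the MYC-Off Day 4 group) was at least 29.3-fold higher, Sult2a2 (52 reads) at least 26.3-fold, Sult2a7 (47 reads) at least 23.8-fold and Sult2a5 (26 reads) at least 13.1-fold. Without MYC-Off Day 4 replicate 1, which held most reads of Sult3a1 and Sult2a2, these 2 bounds were 17.2 and 15.4. Sult2a3 had 1 read against 35, a ratio of 53.1 (exact 95% interval 8.92 to 2156, counting error only), and 23.2 (3.21 to 1016) without MYC-Off Day 4 replicate 1, which held 26 of the 35 reads. Of the 47 Sult2a7 reads 46 came from replicate 2, at 3.52 CPM against 0 and 0.0768 CPM in the others. Sult1e1, the oestrogen sulfotransferase, had 12 reads after inactivation, 11 of them in replicate 2, and 0 before. Sult2b1, the cholesterol sulfotransferase, was at 0.178, 0.246 and 0.296 CPM against 0.824, 0.459 and 2.15 CPM and was not tested. Sult2a4, Sult2a6, Sult3a2 and the brain form Sult4a1 had at most 0.307 CPM in any library, and Sult1c1 had 0 reads in all 6.

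The glutathione transferases split by class. The alpha, kappa, mu, theta and zeta classes rose apart from Gstm5, the omega member Gsto1 fell, and the pi class was divided. In the alpha class all 4 members rose. Gsta4 (chromosome 9, 78182774 to 78209349, plus strand), which clears lipid peroxidation products such as hydroxynonenal, went from 1.56, 1.39 and 1.13 CPM to 37.4, 127 and 93.7 CPM. All MYC-Off Day 4 libraries lay far above MYC-On, and the log2 fold change was 5.97 with SE 0.53 (adjusted p = 0.000807), with a call that held without each library. Gsta3, known in the mouse for detoxifying the epoxide of aflatoxin, was the most abundant of the class, with 62.9, 24.7 and 60.4 CPM before and 254, 1202 and 1495 CPM after inactivation (log2 fold change 4.32, adjusted p = 0.00385). Gsta1 and Gsta2, close copies of each other, rose by 4.52 and 4.23 on the log2 scale to 2.60 ± 1.99 and 17.9 ± 10.5 CPM, and these values were 3.61 and 3.64 without MYC-Off Day 4 replicate 3 (Gsta1 3.88 without MYC-On replicate 2). Gstk1 (chromosome 6, 42245935 to 42250447, plus strand), the kappa enzyme of mitochondria and peroxisomes, rose from 3.16, 1.39 and 1.78 CPM to 29.4, 203 and 96.1 CPM. The log2 fold change of 5.69 with SE 0.79 (adjusted p = 0.00174) became 4.77 without MYC-Off Day 4 replicate 2.

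The mu class, a cluster on chromosome 3, held the largest increases and 1 decrease. Gstm6 (chromosome 3, 107938847 to 107943749, minus strand) rose from 1.60, 0.655 and 0.592 CPM to 16.4, 109 and 103 CPM, a log2 fold change of 6.31 with SE 0.87 (adjusted p = 0.00170). Gstm2 (chromosome 3, 107981702 to 107986453, minus strand) had 2.18, 0.655 and 1.68 CPM in MYC-On and 26.3, 100.1 and 214 CPM in MYC-Off Day 4, with replicate 3 the highest. Its log2 fold change of 6.24 with SE 0.90 (adjusted p = 0.00196) was 5.25 without that library. Gstm1, the most abundant of the class, was at 117, 77.1 and 97.7 CPM and 537, 1793 and 2498 CPM (log2 fold change 4.05, adjusted p = 0.00251; 3.45 without MYC-Off Day 4 replicate 3). Gstm3, Gstm4 and Gstm7 also rose, by 4.65, 3.72 and 5.65 on the log2 scale, and to lower values of 3.62, 2.95 and 4.76 without that library. Gstm5 (chromosome 3, 107895821 to 107898686, plus strand) went the other way, from 26.2, 23.7 and 34.0 CPM to 14.6, 12.7 and 18.1 CPM. Every MYC-Off Day 4 library was below every MYC-On library, and the mean changed from 28.0 ± 5.37 to 15.1 ± 2.75 CPM, a log2 fold change of -0.89 with SE 0.26 (adjusted p = 0.0238). The call was lost without MYC-On replicate 1 (-0.98, adjusted p = 0.0601) or replicate 3 (-0.77, adjusted p = 0.0836). Gstm5 overlaps 4933431E20Rik on the other strand, whose reads cannot be told apart from its own here.

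Gsto1 (chromosome 19, 47854970 to 47864790, plus strand), of the omega class that reduces dehydroascorbate rather than conjugating, was the other member that fell. Its levels were close within each group, 141, 123 and 132 CPM in MYC-On and 63.6, 79.1 and 73.8 CPM in MYC-Off Day 4. The groups did not overlap, and the mean changed from 132 ± 9.13 to 72.2 ± 7.88 CPM, a log2 fold change of -0.87 with SE 0.20 (adjusted p = 0.0101) that stayed called without each library. Of the pi class, which detoxifies electrophiles and is often studied in tumours, Gstp3 (chromosome 19, 4057477 to 4059569, minus strand) rose from 107, 62.7 and 136 CPM to 433, 1584 and 1340.4 CPM, a log2 fold change of 3.46 with SE 0.59 (adjusted p = 0.00352). Gstp1 was at 139.5, 132 and 173 CPM and 65.8, 135 and 298 CPM. Its MYC-Off Day 4 libraries lay below, within and above the MYC-On range, and the log2 fold change of 0.17 with SE 0.51 (adjusted p = 0.800) changed sign without replicate 3 of that group (-0.67) and with library size only (-0.68). Gstp3 shares no 50-base stretch with another gene, while 33.7% of those of Gstp1 are shared, mostly with Gstp2. Gsto2 and Gstp2 were not tested: Gsto2 had at most 0.307 CPM and Gstp2 at most 0.768 CPM in any library.

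The theta and zeta classes rose less. Gstt2 went from 7.08, 7.98 and 12.3 CPM to 31.5, 67.7 and 72.8 CPM (log2 fold change 2.65, adjusted p = 0.00224). Gstt1, which acts on small halogenated compounds, went from 66.5, 45.1 and 85.6 CPM to 90.2, 209.6 and 444 CPM, and its lowest MYC-Off Day 4 library was only just above the highest MYC-On library. The call on Gstt1 (1.92, adjusted p = 0.0261) was lost without any 1 of the MYC-On libraries and without MYC-Off Day 4 replicate 3, where the value was 1.07, and with library size only (adjusted p = 0.0760). Gstt3 overlapped between groups, with 16.3, 9.33 and 13.0 CPM against 14.4, 44.4 and 182 CPM, and its call (2.64, adjusted p = 0.0333) was lost without the same libraries, at 1.06 without MYC-Off Day 4 replicate 3, and with library size only, no filter, limma-voom and a replicate block (adjusted p from 0.0673 to 0.137). Gstz1, the maleylacetoacetate isomerase of tyrosine breakdown, had 188, 98.6 and 183 CPM in MYC-On and 327, 1271 and 814 CPM after inactivation (log2 fold change 2.36, adjusted p = 0.0108). That value was 1.76 without MYC-Off Day 4 replicate 2 and was not called without MYC-On replicate 2 (adjusted p = 0.0566) or with a replicate block (adjusted p = 0.0523). The genes Pomt2 and Gm6566 overlap Gstz1 on the other strand. Gstt4, with 6 reads over all libraries, was not tested.

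Because the members differ in length, the make-up of each family was compared per kilobase of exon not shared with another gene. In MYC-On a single UGT made up most of its family: Ugt2b34, at 42.4 ± 17.7 CPM per kilobase (SD, n = 3), held 72.0% to 79.6% of the family's summed level in each library. Ugt1a6b (3.37 ± 0.951) and Ugt2b5 (3.27 ± 2.06) came next. Ugt2b5 was above Ugt1a6b in MYC-On replicates 1 and 3, and the single value of Ugt1a6b is uncertain for its shared sequence. In MYC-Off Day 4 the share of Ugt2b34 was 8.51% to 28.0%. There Ugt2b36 (211 ± 196), Ugt2b1 (206 ± 277), Ugt2b5 (143 ± 116) and Ugt2b34 (137 ± 49.3) led in mean CPM per kilobase. Neighbours in that order did not differ beyond their spread. By library, Ugt2b34 was still the highest UGT in MYC-Off Day 4 replicates 1 and 3, and Ugt2b1 was the highest in replicate 2. In the SULT family the leading member changed in every MYC-Off Day 4 library. Sult1d1 held 61.8% to 76.4% of the SULT level in MYC-On, at 12.2 ± 8.49 CPM per kilobase. In MYC-Off Day 4 it held 9.31% to 27.0%, and Sult1a1 led with 40.8% to 68.5% at 175 ± 78.1. In the GST family Gstp3 had the highest mean in both groups, at 112 ± 40.7 CPM per kilobase in MYC-On and 1232 ± 668 in MYC-Off Day 4, though Gstp1 was above it in MYC-On replicate 2 and Gstm1 in MYC-Off Day 4 replicate 3. Behind it Gstp1 (95.7 ± 13.9), Gstm1 (66.1 ± 13.7) and Gsto1 (65.3 ± 4.51) followed in MYC-On, and Gstm1 (1092 ± 674) and Gsta3 (226 ± 149) in MYC-Off Day 4. Gstp1 and Gsto1 went from 17.7% to 23.6% and 11.6% to 16.8% of the family to 1.95% to 3.66% and 0.694% to 2.43%.

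**Figure D3:**
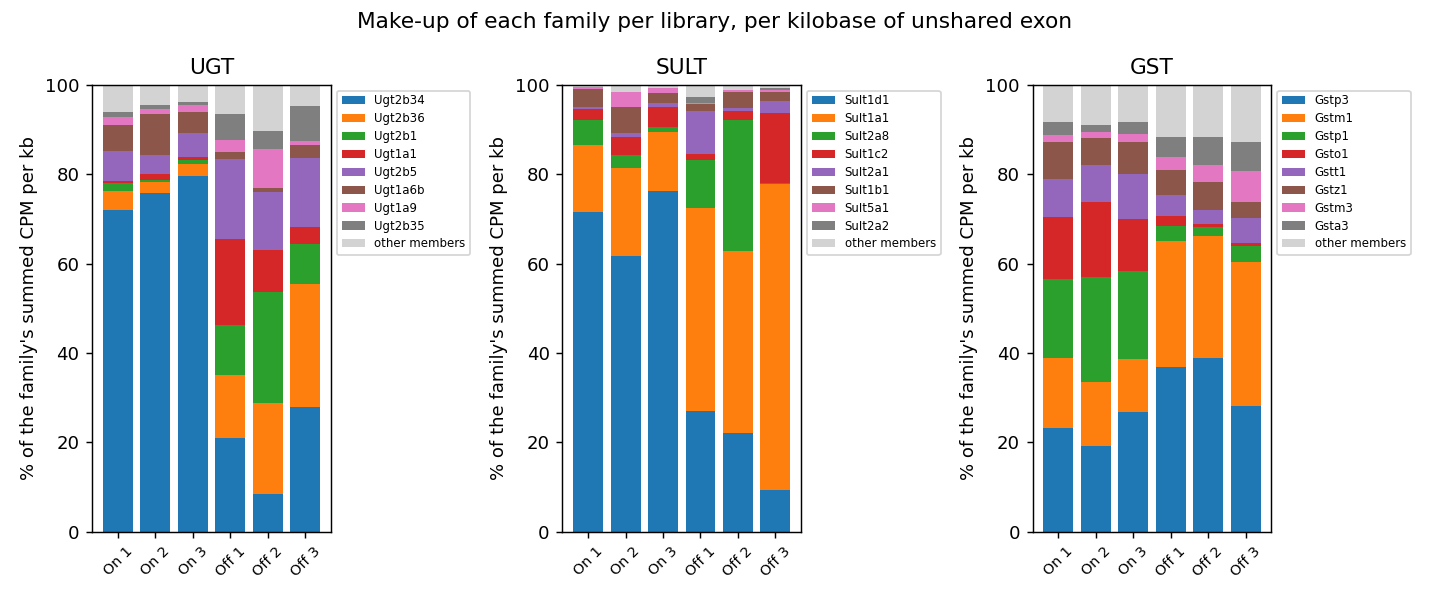
Share of each family's summed CPM per kilobase (vertical axis, percent) held by its leading members in each library (horizontal axis), with all others in light grey. Ugt2b34 fills 72.0% to 79.6% of the UGT bars and Sult1d1 61.8% to 76.4% of the SULT bars in MYC-On, and both shares are lower in every MYC-Off Day 4 library.

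The 3 MYC-Off Day 4 libraries differed from each other far more for these enzymes than for most genes. The highest of them was a median of 8.51 times the lowest for tested UGT members, 6.01 times for SULT and 4.64 times for GST, against 1.95 times over all genes tested. Which library led depended on the family. Replicate 2 was the highest for 13 of 14 UGT members and replicate 3 for 0, whereas replicate 3 was the highest for 13 of 19 GST members, 6 of the 7 tested Gstm among them, and replicate 2 for 6. Of the 7 SULT members 1, 4 and 2 were highest in replicates 1, 2 and 3. Replicate 1 was the lowest of the group for 30 of the 40 tested members. How often each library was the highest or lowest over all genes tested was not counted. The 14 UGT rows include 6 Ugt1a members with common exons and 7 members that did not reach the read minimum in all MYC-On libraries. The widest ratios were those of Sult2a8 (147), Ugt3a2 (73.1), Ugt3a1 (48.5) and Ugt1a9 (45.3), and in all 4 replicate 3 was the lowest. Without replicate 3 of MYC-Off Day 4, 13 of 15 UGT, 8 of 8 SULT and 14 of 19 GST members then tested were called higher, beside 4317 of 14721 genes. Without replicate 2 the counts were 11 of 14, 7 of 9 and 16 of 19, beside 3839 of 14549 genes. Both sets of counts include members that did not reach the read minimum in all MYC-On libraries.

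**Figure D4:**
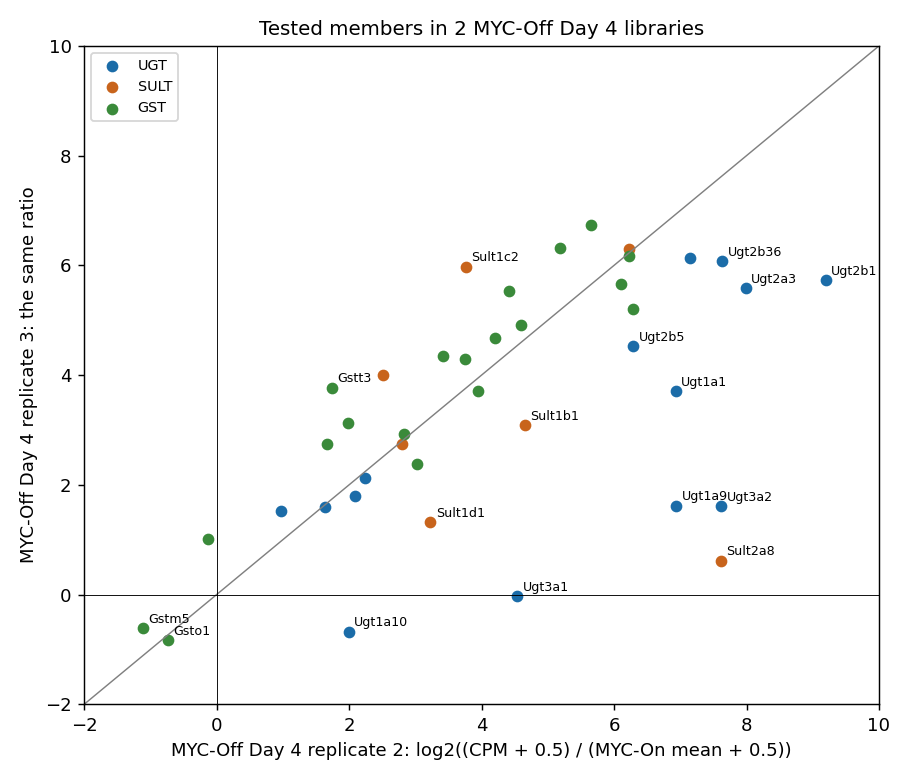
Log2 ratio of each tested member to its MYC-On mean, with 0.5 CPM added to both, in MYC-Off Day 4 replicate 2 (horizontal axis) and replicate 3 (vertical axis); the diagonal marks equal values, and members more than 1.5 apart and the 2 that fell are named. UGT members lie on or below the diagonal except for 1 at the low end, GST members mostly on or above it, and Sult2a8, Ugt3a2 and Ugt1a9 lie far below it.

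Replicate 3 of MYC-Off Day 4 also stood apart in marker genes, which were picked out after their values were seen. Of 10 male-biased liver genes, Slco1a1 was at 60.1, 360.5 and 0.384 CPM, Cyp7b1 at 29.5, 174 and 0.230 CPM and Hsd3b5 at 7.20, 75.2 and 0 CPM in the 3 MYC-Off Day 4 libraries. The list as a whole did not follow these 3: its sum was 478, 2058 and 826 CPM, and Cyp4a12a was highest in replicate 3, at 49.6, 295 and 387 CPM. The sum of 9 female-biased liver genes was 107, 186 and 219 CPM in the same libraries, highest in replicate 3. Cyp2e1, a cytochrome P450 of the cells around the central vein, was at 982, 5718 and 2.15 CPM over the 3 libraries, and Clec4f, a marker of Kupffer cells, at 221, 272 and 0 CPM. The macrophage markers as a list did not follow Clec4f to 0: their sum was 8242, 3121 and 2117 CPM, against 589.6 to 1146 CPM in MYC-On. Alb, the albumin gene, was by contrast highest in replicate 3, at 59067, 105526 and 203649.9 CPM. The 4 Y-linked genes were present at 14.8 CPM or more in all 6 libraries and Xist, the RNA of the inactive X chromosome in females, at no more than 0.384 CPM, the pattern of male tissue in every library. The part of these differences in the low values of Sult2a8, Ugt3a1, Ugt3a2 and Ugt1a9 was not tested.

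Counts on donor supply, other conjugating enzymes, related proteins, removal, export and regulators follow. They are to be read against the 29.9% of all genes tested that were called higher and the 22.8% called lower. No list was tested against another. Of 8 genes for UDP-glucuronate 2 rose (median log2 fold change 0.76): Ugp2, which makes UDP-glucose, by 2.45 with an SE of 0.57 (adjusted p = 0.0104), and the transporter Slc35b1 by 1.27 (adjusted p = 0.00473). Ugdh, the enzyme that oxidises UDP-glucose to UDP-glucuronate, did not pass, with 58.8 to 74.0 CPM in MYC-On and a mean of 116 ± 67.4 CPM in MYC-Off Day 4. For PAPS 3 of 9 genes rose and 2 fell (median 0.59). Papss2, the liver form of PAPS synthase, went from 3.16, 1.56 and 1.53 CPM to 83.7, 285 and 280.4 CPM, a log2 fold change of 6.70 with SE 0.65 (adjusted p = 0.000850), and the sulfate transporter Slc26a1 rose by 6.42 and Suox, the sulfite oxidase, by 4.20. Slc35b2, the transporter of PAPS into the Golgi, and Bpnt1, which breaks down the spent product PAP, fell by 1.01 and 1.29. Papss1, the other form of the synthase, did not pass, at 29.4, 31.4 and 30.5 CPM against 28.1, 25.6 and 33.9 CPM (adjusted p = 0.823). Of 11 tested genes of glutathione synthesis and turnover 4 rose and 0 fell (median 0.93). Gclc, the rate-limiting enzyme of glutathione synthesis, rose by 1.38. The other 3 act in its breakdown cycle: Ggt5, which cleaves glutathione and its conjugates outside the cell, by 4.06, Chac1, which degrades it inside the cell, by 2.31, and Oplah, which recovers glutamate from oxoproline, by 4.67.

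Of the other conjugating enzymes 14 of 15 tested rose and 0 fell, with a median log2 fold change of 5.19. Acsm1, which activates carboxylic acids for glycine conjugation, rose by 6.06 (SE 0.83, adjusted p = 0.00170) and Slc27a5, which activates bile acids, by 7.47 (adjusted p = 0.00200). Of 11 tested genes listed as other GST-like proteins, not all of them related to GST by fold, 4 were higher and 2 lower (median 1.16). Gstcd and Eef1g, which carry a GST-like domain but serve other ends, fell by 2.43 and 1.75, and the microsomal transferase Mgst1 went from 229.7, 95.2 and 279 CPM to 648, 4149.9 and 796 CPM, again highest in MYC-Off Day 4 replicate 2. Of 7 tested genes that remove conjugates 4 rose and 1, Acy1, fell by 1.14. Gusb, the lysosomal beta-glucuronidase, did not pass (96.4, 113 and 96.3 CPM against 157, 80.5 and 139 CPM). Ugdh, Papss1, Mgst1 and Gusb, and Abcc2 in what follows, were picked out for their roles after their values were seen. Tpst2, which sulfates tyrosines of proteins in the Golgi and belongs to neither cytosolic family, rose by 0.99.

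Of 10 export pumps 4 rose and 1 fell (median 0.62). Abcc3, which carries glucuronides into blood, rose from 21.5, 36.7 and 25.8 CPM to 128, 167 and 109 CPM, a log2 fold change of 2.27 with SE 0.29 (adjusted p = 0.00138), and Abcc4 fell by 1.72. Abcc2, the canalicular pump for bilirubin glucuronides, did not pass (94.4, 118 and 53.1 CPM against 112, 484 and 185 CPM, adjusted p = 0.0553). Of 18 regulators 10 rose (median 0.82). Nr1i3, the nuclear receptor CAR that controls many UGT, SULT and GST genes, went from 0.534, 0.123 and 0.148 CPM to 6.87, 27.9 and 17.7 CPM, a log2 fold change of 5.99 with SE 0.81 (adjusted p = 0.00163). Bcl6, a repressor in the growth hormone response of liver, rose by 3.50.

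**Figure D5:**
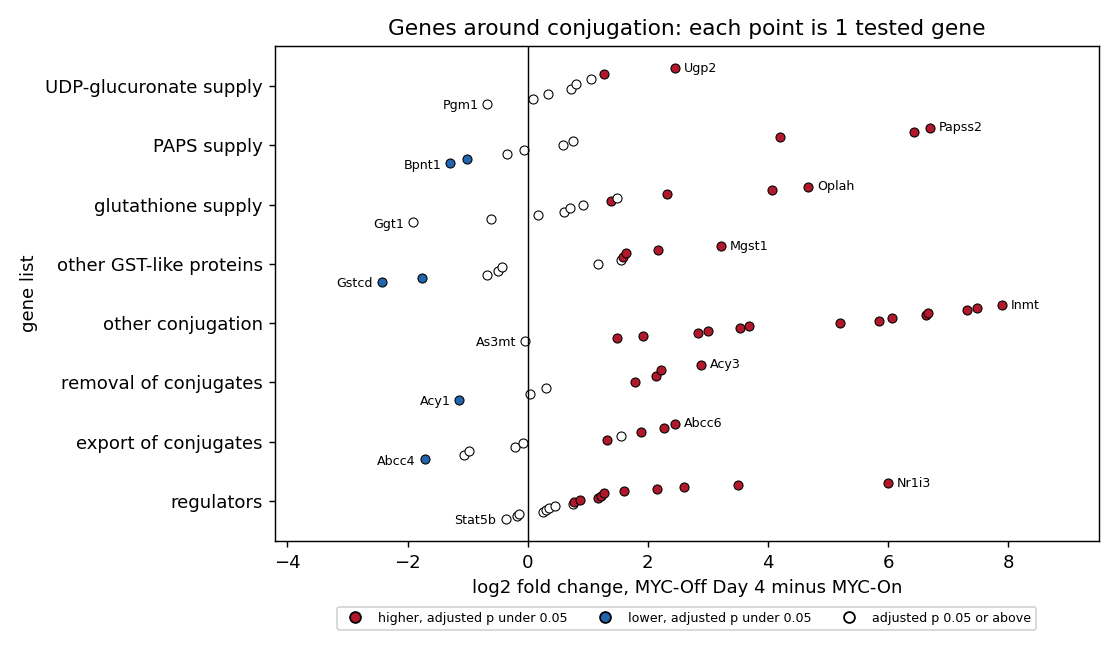
Log2 fold change (horizontal axis, MYC-Off Day 4 minus MYC-On) of each tested gene in 8 lists around conjugation (vertical axis), red or blue where the adjusted p was under 0.05. The other conjugation enzymes lie above 0 apart from As3mt, which lies at it, while each of the other lists has members on both sides of 0.

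Markers of other cell types were called higher in MYC-Off Day 4 too. Their counts are to be read against the 29.9% of all genes tested that were called higher and the 22.8% called lower. No list was tested against these shares, and the B cell and bile duct counts lie nearest to them. Called higher were 11 of 12 tested macrophage markers (summed level 589.6 to 1146 CPM in MYC-On and 2117 to 8242 CPM in MYC-Off Day 4), 9 of 9 neutrophil, 6 of 8 T and NK cell, 2 of 4 B cell, 8 of 9 endothelial, 10 of 11 stellate cell or fibroblast and 7 of 7 erythroid markers. For bile duct cells 4 of 9 were higher and 1 lower, with sums of 88.98 to 144 CPM and 166 to 361 CPM. Of the markers of gut and pancreas, tissues that express some of these transferases, 7 of 11 were at 0 in every MYC-Off Day 4 library, while 2 of the 3 tested, Fabp2 and Cela1, were called higher, and the list's sum was 14.3 to 36.8 CPM in MYC-On and 33.5 to 118 CPM in MYC-Off Day 4. The macrophage sum was highest in MYC-Off Day 4 replicate 1, in which most members were at their lowest of the group. The part of these shifts in the members' levels was not tested.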

How the data were processed

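The values are whole-number read counts per gene symbol in 6 libraries of bulk liver tumour RNA, deposited by the authors without normalization. Per the submitters' processing notes, the tools were STAR, featureCounts, DESeq2, Picard and Trimmomatic and the build mm10; the sources used here do not give their versions, the annotation or the strandedness. The choice of members and gene lists was made with earlier results of these data known.

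Groups came from the sample titles. From all 52459 rows, filterByExpr kept 14130 genes (at least 10 reads in enough libraries and 15 in total). These were TMM-scaled and fitted with edgeR 4.0.16 (R 4.3.3) by its robust quasi-likelihood method, with Benjamini-Hochberg adjustment over all of them and calls at 0.05. The SE of a log2 fold change is its size divided by the square root of F. For genes with 1 to 3 reads in a group, ratios have exact 95% intervals, and a group at 0 was set to a floor of 3 reads. Full statistics were given to the 4 largest non-overlapping increases per family with a mean of at least 5 CPM, all decreases, and the most abundant member per kilobase. Of each other list the text names the 2 smallest adjusted p, or all called where 5 or fewer were. From the lists for UDP-glucuronate supply and for regulators, 1 gene each is not reported here, and the lists' counts, medians and plot leave it out. Coordinates and lengths came from GENCODE mouse release 21 (mm10), which held all 62 members, and promoters from RefSeq. In 26 rows a date stands in place of a symbol, and none of these can be a member.

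Libraries of a group differed by more than sampling noise, with a chi-square of at least 32.1 per degree of freedom. The test was checked on simulated counts with known changes. The alternatives tried were library size only, size factors of DESeq2, no filter, at least 1 CPM in 3 libraries, DESeq2 1.42.0, limma-voom (limma 3.58.1), a replicate block, and leaving out each library.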

Additional observations from a re-analysis of the deposited data

How the results depend on the processing

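Counted over all members tested in each fit, the 3 families kept more increases than decreases under all 13 alternatives, but single calls depended on few libraries. Leaving out each library in turn gave 6 to 13 UGT members higher (6 without MYC-On replicate 2 and without MYC-On replicate 3, of 15 then tested), 6 to 9 SULT members and 13 to 16 GST members higher, and 1 to 2 GST members lower (1 without MYC-On replicate 1 or 3, where Gstm5 lost its call). The median log2 fold change ranged from 3.56 to 6.60 for UGT, 4.02 to 6.04 for SULT and 3.45 to 4.31 for GST, the lowest UGT and SULT values being those without MYC-Off Day 4 replicate 2. The SULT median was 4.41 with library size only and 4.45 in limma-voom, against 5.30. Over all genes, 2776 to 4317 were higher and 2337 to 3786 lower in these fits, and with library size only 2527 were higher and 5300 lower, so the split between directions rests on the scaling. The sign of Gstp1, which was never called, turned with library size only (-0.68), in limma-voom (-0.065), with a replicate block (-0.083) and without MYC-Off Day 4 replicate 3 (-0.67), and that of Ugt1a10, also not called, without MYC-Off Day 4 replicate 2 (-0.51); leaving out each library gave -0.67 to 0.40 for Gstp1 and -0.51 to 2.10 for Ugt1a10, and the cause was not tested. Counting only members at the read minimum in all MYC-On libraries, a choice made after seeing the data, gave 6 UGT members higher in the main fit. The medians were then 2.21 for UGT and 3.98 for SULT, both below the ranges given above for leaving out each library. The counts and medians under the 13 alternatives include members below that minimum and were not repeated without them. Of the 40 tested members, 7 lost their call with library size only, 7 with no filter and 6 in limma-voom. DESeq2 and DESeq2 size factors ended no call, though DESeq2 gave no adjusted p for Ugt2b1. Leaving out 1 library moved 27 members by more than 1.5-fold, 15 of them without MYC-Off Day 4 replicate 2.

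With the replicate number as a block, 8 UGT, 5 SULT and 14 GST members were higher and 2 GST members lower, and over all genes 3152 were higher and 2611 lower. Same-numbered libraries did not deviate together (correlations of -0.27, -0.16 and 0.04). The labels do not say whether the numbers pair the samples, and deviations within groups of 3 libraries cannot decide it.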
